A study of Mus musculus with 23 samples.

Results

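Genes for 9 proteins of the growing axon tip were followed across all libraries: Gap43, Basp1, Marcks and Marcksl1, which encode calmodulin- and phospholipid-binding proteins of the inner membrane surface, the stathmins Stmn1, Stmn2, Stmn3 and Stmn4, which bind tubulin dimers, and Shtn1, which encodes shootin 1. They are 9 of the 55487 gene IDs in the count tables, were taken by name, and all 9 were matched. The cells were hippocampal neurons from C57Bl/6 mouse pups of postnatal day 1, seeded in the cell-body side of microfluidic chambers whose other side receives the axons. Every culture, controls included, grew in medium with 5 µg/ml magnetic nanoparticles (MNPs). A field gradient of 50 T/m was applied to the stretched cultures between DIV 1 and DIV 6 (DIV, day in vitro), and the control cultures had a null gradient. Poly(A) RNA was sequenced from control axons (5 libraries), stretched axons (6), control somata (6) and stretched somata (6). The labels call the axonal samples pure axonal preparations and the soma samples total cell cultures, so "soma" here stands for the whole culture and not for isolated cell bodies. Nothing in the labels says that libraries came from separate dissections, so the p-values measure the spread between these libraries, which may be partly technical.

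Growth cones are the motile ends of growing axons, where microtubules from the shaft meet an actin network behind the leading membrane. GAP-43, BASP1 and MARCKS are phosphoproteins of the inner membrane face that bind phosphoinositides there and are substrates of protein kinase C. MARCKS and BASP1 bind calcium-loaded calmodulin, whereas GAP-43 binds calmodulin mainly at low calcium. Stathmins sequester tubulin and promote microtubule shrinkage until they are phosphorylated. Shootin 1 links the rearward-moving actin network to the adhesion molecule L1 and serves as a clutch that turns actin flow into traction. Gap43 RNA is a classical axonally transported transcript, bound by the Hu protein HuD (Elavl4).

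The 9 genes differ in how their products are held at membranes, and this shows in the first codons. The lines below give the start of each coding sequence of the GENCODE M21 transcript (build GRCm38), 5′ to 3′ on the coding strand, for the genes with a short lipid-bearing start and for the stathmin family. Capitals mark cysteine codons (TGC or TGT), which carry palmitate in GAP-43 and in the membrane-bound stathmins, and a glycine codon directly after the start codon, the site of myristate in BASP1 and the MARCKS proteins.
Gap43: atgctgTGCTGTatgagaagaaccaaacag
Basp1: atgGGAggcaagctgagcaagaagaagaag
Marcks: atgGGTgcccagttctccaagaccgcagcg
Marcksl1: atgGGCagccagagctctaaggctccccgg
Stmn1: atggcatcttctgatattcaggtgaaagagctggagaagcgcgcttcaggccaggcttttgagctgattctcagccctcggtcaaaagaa
Stmn2: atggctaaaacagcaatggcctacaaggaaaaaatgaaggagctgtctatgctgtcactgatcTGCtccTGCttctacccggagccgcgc
Stmn3: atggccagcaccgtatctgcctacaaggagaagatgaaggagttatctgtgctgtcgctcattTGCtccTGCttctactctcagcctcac
Stmn4: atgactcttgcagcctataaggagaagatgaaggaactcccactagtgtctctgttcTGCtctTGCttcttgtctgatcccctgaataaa

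Gap43 has its cysteine codons at positions 3 and 4. Stmn2 and Stmn3 share a pair at codons 22 and 24, Stmn4 has its pair at codons 20 and 22, and the 90 bases of Stmn1, the cytosolic stathmin, hold none. Over aligned coding bases, Stmn1 was 72.8% identical to Stmn2, 69.2% to Stmn3 and 70.4% to Stmn4, and Marcks was 64.7% identical to Marcksl1. The near-identical copy Marcksl1-ps4 was listed at 0 in every library, and reads that fit more than 1 place were kept out of the counts.

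The genes lie apart in the genome except for a pair on chromosome 4. In GRCm38 these are Gap43 (chr16:42248442-42340651, minus strand), Basp1 (chr15:25363277-25413764, minus), Marcks (chr10:37133375-37138920, minus), Marcksl1 (chr4:129513581-129515985, plus) and Stmn1 (chr4:134468320-134473843, plus). The others are Stmn2 (chr3:8509360-8561606, plus), Stmn3 (chr2:181306459-181314500, minus), Stmn4 (chr14:66344296-66361680, plus) and Shtn1 (chr19:58973356-59076100, minus). Their longest coding transcripts differ in size: Stmn1 has 1060 bases, Stmn3 1136, Stmn4 1361, Gap43 1420, Marcksl1 1605, Basp1 1855, Stmn2 2073, Shtn1 3974 and Marcks 4048, against a median of 2784 over 20853 coding genes with a 3′ untranslated region.

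Libraries held 16369153 to 43048953 gene counts, and values below are counts per 1000000 of these (CPM) unless stated. Soma libraries detected 22452 to 24575 genes and axon libraries 4263 to 10242. Astrocyte markers summed to 3978 to 21496 CPM in control axons, 4052 to 19757 in stretched axons, 4771 to 12976 in control somata and 5001 to 10833 in stretched somata. In every group 8 of 8 markers had a count in at least 1 library. In every library, 4 of 8 were counted in control axons, 1 in stretched axons and 8 in each soma group. Neuron markers summed to 733 to 3050 CPM in control axons, 1632 to 2749 in stretched axons, 4811 to 5533 in control somata and 4581 to 5027 in stretched somata. Again 7 of 7 markers had a count in at least 1 library of each group. In every library, 3 of 7 were counted in control axons, 2 in stretched axons and 7 in each soma group. Markers of the nucleus and somatodendritic compartment summed to 1035 to 3284 CPM in control axons and 1029 to 3277 in stretched axons. Their sums were 2551 to 3394 CPM in control somata and 1980 to 2887 in stretched somata. The axon libraries thus held astrocyte transcripts and transcripts of this compartment list, which their label as pure axons does not name. The part of these in the results below was not tested. Other marker lists were counted unevenly in axons. Oligodendrocyte lineage markers summed to 0 to 438 CPM in control axons and 0.0351 to 281 in stretched axons, with Sox10 at 0 throughout. In the same order, dividing or progenitor markers summed to 104 to 1006 and 0.561 to 1102 CPM, with Sox2 at 0. Fibroblast or vascular markers summed to 0.890 to 386 and 0 to 1110 CPM, with Cldn5 at 0. Microglia markers summed to 0 to 363 and 0 to 312 CPM. In somata the highest sums were 71.2, 191, 224 and 46.6 CPM in the order of these lists. On the leading principal component over somata (53.2% of the variance, 9529 genes, 12 libraries), control soma replicate 4 lay at 19.2, among the stretched somata (9.98 to 26.0) and apart from the other controls (-31.4 to -21.5). Soma libraries also fell into 2 sets by how much Eif2s3y, a Y-linked gene, they held, here called library group A (24.7 to 28.7 CPM) and library group B (5.39 to 13.2 CPM), with 3 control and 3 stretched libraries in each. In these bulk samples, fewer cells of a type and less RNA per cell cannot be told apart.

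The first question was where the members stand in level. Per kilobase of transcript, Stmn1, Marcksl1 and Gap43 led in all 4 groups, the other stathmins followed, and Basp1, Marcks and Shtn1 came last. In control somata Stmn1 had 2200 ± 249 CPM per kilobase (SD, n = 6), Marcksl1 1527 ± 302 and Gap43 1372 ± 160, and the library ranges of these neighbours overlapped. Stmn3 (795 ± 101), Stmn4 (768 ± 41.9) and Stmn2 (612 ± 92.6) formed a second tier, below every Gap43 value and also overlapping among themselves. Basp1 (39.5 ± 7.78), Marcks (39.0 ± 6.68) and Shtn1 (36.9 ± 3.98) were lowest and did not differ beyond their spread. In control axons the order was Stmn1 (1051 ± 321 CPM per kilobase, SD, n = 5), Marcksl1 (1006 ± 349), Gap43 (796 ± 482), Stmn4 (432 ± 325), Stmn3 (427 ± 256) and Stmn2 (414 ± 240), with every neighbouring pair overlapping, and the gap to Basp1 (56.5 ± 32.1) was the one place where ranges did not meet. Stretched axons followed the same order from Stmn1 (1216 ± 174, n = 6) to Stmn2 (447 ± 204) and Basp1 (59.2 ± 52.9), with Shtn1 at 0. The order depends on the length used. By coding length, Marcksl1 (2678 ± 930 per kilobase) came before Stmn1 (2476 ± 756) in control axons, Stmn2 (1717 ± 784) came before Gap43 (1348 ± 690) in stretched axons, and the Stmn2 and Gap43 ranges overlapped in control somata. Marcks (144 to 218 per kilobase of coding length) then also lay above Basp1 (86.4 to 143) and Shtn1 (69.7 to 91.7) in control somata, without overlap.

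**Figure D1:**
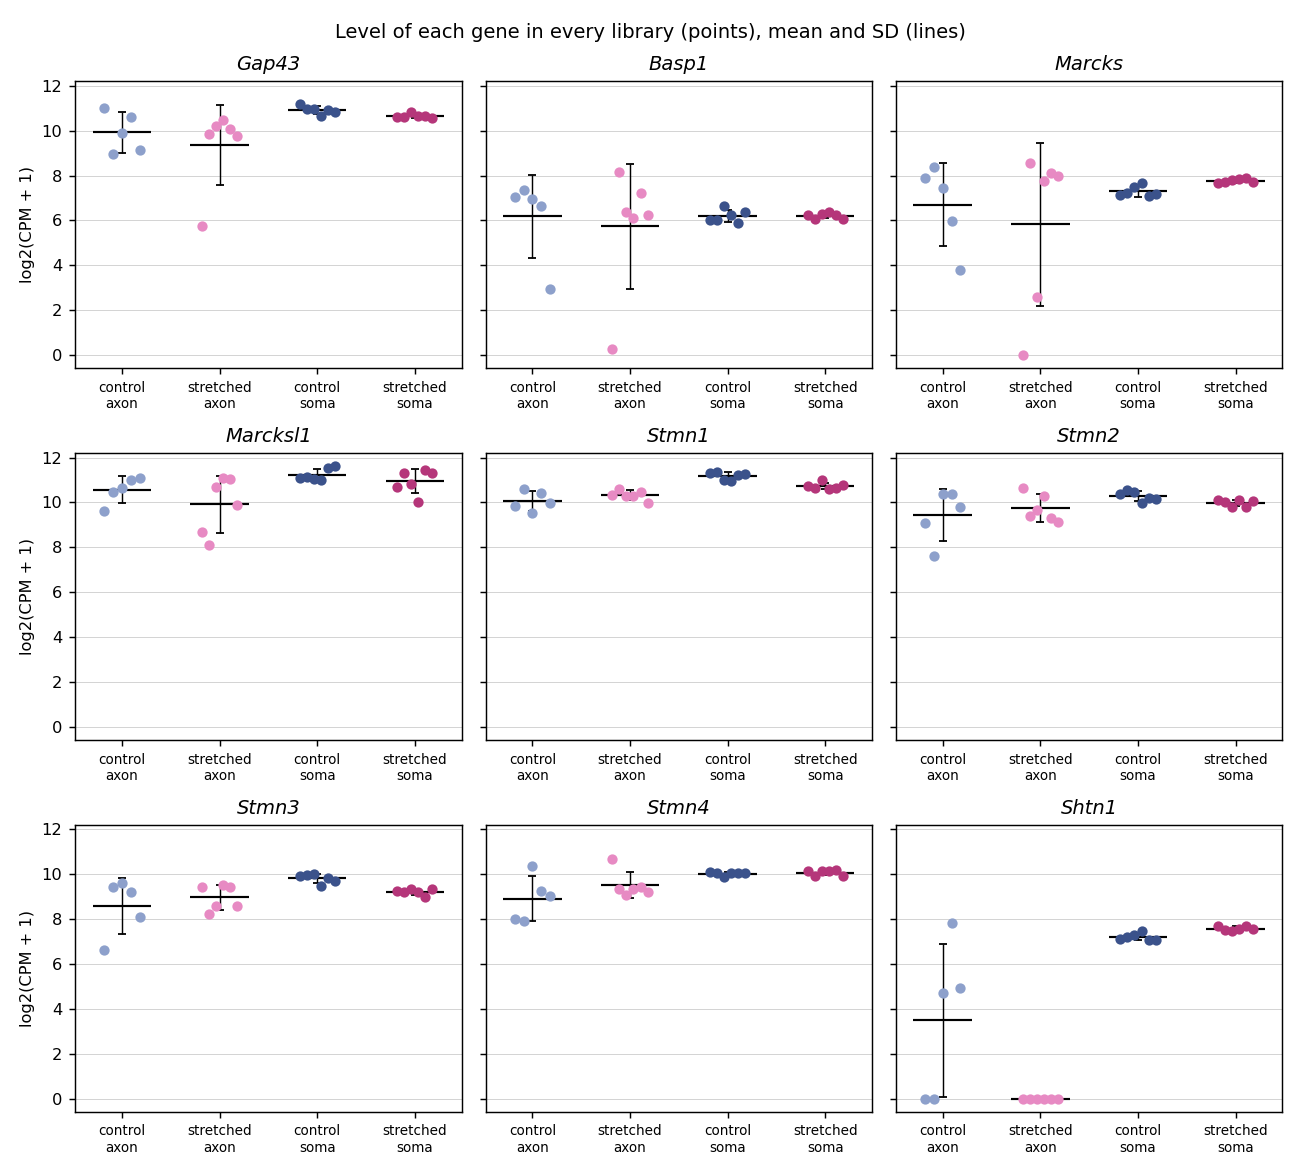
Level of each gene in every library as log2(CPM + 1), where CPM is counts per 1000000 counts of the library; points are libraries, horizontal lines are group means and vertical bars are SD. Soma values are tight, axon values spread widely for Basp1, Marcks and Shtn1 and least for Stmn1, and Shtn1 is at 0 in all 6 stretched axons.

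Of the 9 genes, 6 were called as different between stretched and control somata, with the limits by library and transcript length given below. Marcks and Shtn1 were higher in stretched somata, and Gap43, Stmn1, Stmn2 and Stmn3 were lower (edgeR quasi-likelihood test, Benjamini-Hochberg adjusted p under 0.05 over all 15632 genes tested). Over all genes tested 25.1% were called, 11.2% higher and 13.9% lower. The median log2 fold change was -0.29 over the 9 genes and -0.03 over all genes tested.

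Gap43 ran from 1628 to 2310 CPM in control somata (median 1958) and from 1500 to 1822 in stretched somata (median 1575). Control replicates 4 and 6 lay below the highest stretched library, replicate 4, and the other 4 controls lay above all stretched somata. The log2 fold change was -0.32 (SE 0.09, adjusted p = 0.0171). Basp1, whose product is a relative of GAP-43 in function, lay between 58.8 and 97.6 CPM in control somata (median 69.6). In stretched somata it lay between 66.0 and 82.2 CPM (median 75.0). Its difference was small beside its error, at -0.03 (SE 0.11, adjusted p = 0.868), with a 95% interval from -0.25 to 0.19.

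Marcks, the kinase C substrate that covers phosphoinositides until phosphorylated, ran from 134 to 203 CPM in control somata (median 145) and from 202 to 235 in stretched somata (median 217). The ranges met at a single library, control replicate 4, and the log2 fold change was 0.43 (SE 0.10, adjusted p = 0.00917). Its paralog Marcksl1 ran from 2044 to 3163 CPM in controls (median 2212) and from 1051 to 2755 in stretched somata (median 2182). Its log2 fold change of -0.29 (SE 0.21) did not pass the test (adjusted p = 0.319). Marcksl1 varied most among the soma values of the 9 genes, with a coefficient of variation of 26.0% over the 12 libraries.

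Stmn1 encodes the soluble stathmin. It ran from 1974 to 2597 CPM in control somata (median 2412) and from 1550 to 2031 in stretched somata (median 1641), with an overlap again between the libraries numbered 4. Its log2 fold change was -0.50 (SE 0.10, adjusted p = 0.00496). Stmn2, also called SCG10 and a marker of growing axons, ran from 996 to 1512 CPM in controls (median 1262) and from 896 to 1115 in stretched somata (median 1056). Its log2 fold change was -0.36 (SE 0.10, adjusted p = 0.0188), and without stretched soma replicate 4 its adjusted p was 0.0504.

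Stmn3, the stathmin also known as SCLIP, ran from 707 to 1019 CPM in control somata (median 934) and from 504 to 657 in stretched somata (median 602). It was the one member whose ranges did not overlap, which held for 2.27% of all genes in this direction. Its log2 fold change of -0.64 (SE 0.09, adjusted p = 0.00293) was the largest of the 9 in size. Stmn4, the fourth family member, ran from 932 to 1090 CPM in controls (median 1065) and from 957 to 1160 in stretched somata (median 1125). Its difference was 0.01 (SE 0.08, adjusted p = 0.968), with a 95% interval from -0.15 to 0.16. Shtn1, the actin-to-L1 clutch gene, ran from 132 to 174 CPM in controls (median 142) and from 174 to 207 in stretched somata (median 187). The ranges touched at control replicate 4, and the log2 fold change was 0.33 (SE 0.08, adjusted p = 0.0109).

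Shares within the gene families were computed too. Per kilobase of transcript, Stmn1 made up 50.2 ± 2.36% of the 4 stathmins in control somata and 46.9 ± 2.48% in stretched somata (SD, n = 6 each). Stmn3 went from 18.2 ± 1.72% to 15.4 ± 0.983%, and Stmn4 from 17.7 ± 1.78% to 23.3 ± 2.17%. Stmn2 differed little, at 14.0 ± 1.51% and 14.4 ± 1.64%. Stmn4 shares overlapped between the groups in a narrow zone, 16.0 to 21.0% in controls and 20.4 to 26.5% in stretched somata. Marcks was 2.60 ± 0.809% of Marcks and Marcksl1 together in control somata and 4.46 ± 1.89% in stretched somata. No test was run on these shares.

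Control soma replicate 4 was the control nearest the stretched mean for every member, the 6 called genes and also Basp1, Marcksl1 and Stmn4. Without it 6072 genes (38.3% of those tested) were called in place of 3929, and the same 6 members were called. Their log2 fold changes were then -0.39 for Gap43, 0.49 for Marcks, -0.56 for Stmn1, -0.44 for Stmn2, -0.71 for Stmn3 and 0.37 for Shtn1. Within library group A (3 control and 3 stretched somata), the 6 genes were called too (29.2% of all genes), with Gap43 at -0.46, Marcks at 0.40, Stmn1 at -0.51, Stmn2 at -0.40, Stmn3 at -0.67 and Shtn1 at 0.38. Within library group B, which holds control replicate 4, none of 15718 genes (0%) was called by edgeR (2739 had an unadjusted p under 0.05), and the values were -0.13, 0.50, -0.43, -0.24, -0.53 and 0.34 in the same order. In library group B without control replicate 4, where 27.5% of genes were called, 5 of the 6 passed, and Gap43 did not (-0.22, adjusted p = 0.0810). Astrocyte marker sums overlapped between control and stretched somata within the library groups: they were 9793 to 12976 CPM in controls and 10068 to 10833 in stretched somata of group A, and 4771 to 5802 and 5001 to 5871 in group B, and 0 of 8 were called. Neuron marker sums were lower with stretch in group A, at 5322 to 5533 CPM in controls and 4932 to 5027 in stretched somata, without overlap, and were 4811 to 5057 and 4581 to 4839 CPM in group B, with overlap. Of 7 neuron markers 3 were called, all lower in stretched somata, beside 25.1% of all genes tested. Of dividing or progenitor markers 2 of 6 were called and of microglia markers 1 of 6, all lower. The nucleus and somatodendritic list had 4 of 8 called, 1 higher and 3 lower. Of oligodendrocyte lineage and of fibroblast or vascular markers 0 of 5 tested were called in each list. The part of these shifts in the lower values of Gap43, Stmn1, Stmn2 and Stmn3 was not tested.

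**Figure D2:**
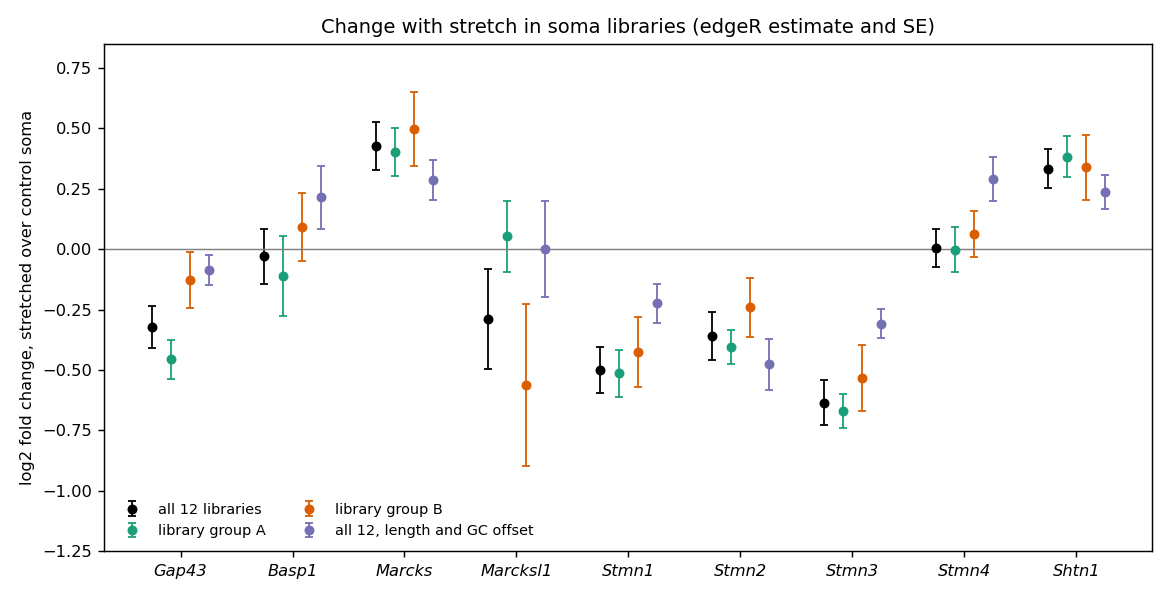
Log2 fold change of each gene, stretched over control soma, with SE from edgeR, for all 12 libraries, for library groups A and B, and for all 12 with an offset for transcript length and GC content. Marcks and Shtn1 are above 0 and Stmn1, Stmn2 and Stmn3 below 0 under all 4; Gap43 is at -0.32 in all 12 libraries and -0.09 with the offset.

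Fold change in somata went with transcript length over the whole genome. Spearman's rho between the log2 fold change and the length of the longest transcript was 0.457 across 15619 genes, which are not independent replicates. The median log2 fold change was -0.33 in the shortest of 5 equal length classes (57 to 1871 bases) and was -0.17, -0.02, 0.16 and 0.24 in the next 4. Gap43, Basp1, Marcksl1, Stmn1, Stmn3 and Stmn4 all belong to the shortest class. Marcks and Shtn1, the genes that rose, have the longest transcripts of the 9 and belong to the class with a median of 0.16.

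Against these medians Gap43 (-0.32) and Marcksl1 (-0.29) stood close to the genes of their own length, Stmn1 and Stmn3 below them, and Basp1 and Stmn4 above. Stmn2 was at -0.36 in a class with a median of -0.02, though its longest transcript (3413 bases) is a retained-intron model. Its coding transcript has 2073 bases, in the range of the class with a median of -0.17 (1872 to 2838 bases). With an offset for length and GC content in the edgeR fit, 15.8% of genes were called, and Stmn3 (-0.31, adjusted p = 0.00810), Stmn2 (-0.48, adjusted p = 0.0115), Marcks (0.29, adjusted p = 0.0313) and Shtn1 (0.24, adjusted p = 0.0338) were called. Gap43 (-0.09, adjusted p = 0.386) and Stmn1 (-0.22, adjusted p = 0.0706) were not. Stmn4 was then called higher, at 0.29 (SE 0.09, adjusted p = 0.0433). The offset used the longest transcript of any type, which for Stmn2 is the 3413-base model, and no fit used its coding transcript. The cause of the relation with length was not tested.

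**Figure D3:**
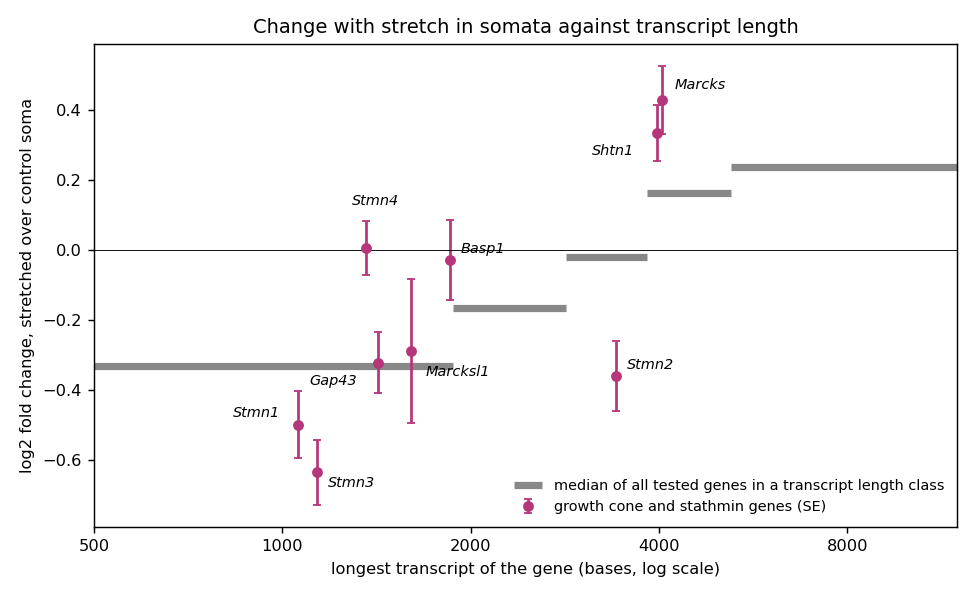
Log2 fold change, stretched over control soma (SE), of the 9 genes against the length of the longest transcript in bases (log scale); grey bars are the medians of all tested genes in each of 5 length classes, the outer ones cut at the edges of the plot. Medians go from -0.33 to 0.24 with length, Marcks and Shtn1 lie at the long end and Stmn1 and Stmn3 at the short end, while Stmn4 lies above and Stmn2 below the median of its class. Stmn2 is placed by a retained-intron model that is longer than its coding transcript.

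In axons, stretch gave no call for any of the 8 members tested, and none among the 4947 genes tested (0%; 46 genes, 0.93%, had an unadjusted p under 0.05, and DESeq2 called 18 genes, 0.364%, and limma voom 4, 0.0809%, with no member among them). Shtn1 did not pass the filter on low counts. The spread between axon libraries was large beside the differences.

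Gap43 had 2085, 489, 943, 1571 and 565 CPM in control axons 1, 2, 3, 5 and 7, and ran from 52.8 to 1434 in stretched axons (median 1000). Its log2 fold change was -0.30 (SE 0.63). Basp1 had 133, 163, 124, 98.0 and 6.61 CPM in control axons and ran from 0.191 to 286 in stretched axons (median 78.2), a log2 fold change of 0.06 (SE 1.71). Both genes were lowest in stretched axon replicate 1, the library with the fewest genes detected (4263).

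Marcks had 233, 332, 171, 62.3 and 12.9 CPM in control axons and ran from 0 to 380 in stretched axons (median 236). The zero again fell in stretched axon replicate 1, and replicate 4 had 4.92 CPM. The log2 fold change was 0.29 (SE 1.73). Marcksl1 had 795, 1416, 1594, 2075 and 2193 CPM in control axons and ran from 275 to 2190 in stretched axons (median 1311), a log2 fold change of -0.32 (SE 0.53).

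Stmn1 was the most even of the 9 over the axons. It had 905, 1572, 734, 1349 and 1011 CPM in control axons and ran from 1002 to 1544 in stretched axons (median 1267). The log2 fold change was 0.18 (SE 0.30), with all stretched values inside the control range. Stmn2 had 539, 197, 1343, 1326 and 881 CPM in control axons and ran from 553 to 1619 in stretched axons (median 748), a log2 fold change of 0.02 (SE 0.50).

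Stmn3 had 96.6, 680, 787, 594 and 269 CPM in control axons and ran from 297 to 738 in stretched axons (median 536), a log2 fold change of 0.10 (SE 0.62). Stmn4 had 255, 240, 1325, 603 and 519 CPM in control axons and ran from 542 to 1633 in stretched axons (median 648), a log2 fold change of 0.36 (SE 0.53). The highest Stmn2 and Stmn4 values came from stretched axon replicate 1, the library in which Gap43, Basp1 and Marcks were lowest. The adjusted p was 1.00 for all 8 genes (edgeR), with SEs of 0.30 to 1.73. For Stmn1 the 95% interval in axons was -0.40 to 0.76, which left out its soma value of -0.50. For each other gene tested the axon interval held its soma value, so a change of that size could have been missed. The difference between compartments is tested below.

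Shtn1 had 0, 0, 25.2, 225 and 29.4 CPM in control axons 1, 2, 3, 5 and 7 and no count in any of the 6 stretched axons. Control and stretched values met at 0, since 2 of the 5 control axons had none either. Against a floor of 3 counts per library (a mean of 0.139 CPM in stretched axons), the mean was at least 401-fold lower in stretched axons, and most of the control mean of 55.9 CPM came from replicate 5, the deepest library. Without that library the control mean was 13.6 CPM and the bound 97.9-fold, a setting chosen after seeing the data. Both bounds cover counting error only, not the spread between axon libraries. With no filter on low counts the adjusted p was 0.127 (edgeR). Of 3383 genes whose soma mean reached 70 CPM, 4 (0.118%) were counted in 3 or more control axons and in no stretched axon, and 0.739% were counted in no stretched axon.

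Most of the members were present in every axon library. Of the 9 genes, 7 had counts in all 11 axon libraries, Marcks in 10 and Shtn1 in 3. Among the 3383 genes with a soma mean of at least 70 CPM, 20.7% were found in all 11, and the median gene was found in 8. The members are mostly abundant genes, and abundance goes with detection: of 271 genes with a soma mean of at least 500 CPM, 76.8% were found in all 11, as were 6 of the 6 members at that level.

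The coefficient of variation over the 11 axon libraries was 22.2% for Stmn1, lower than for all but 7 of the 271 genes at or above 500 CPM, whose median was 52.8%. Stmn3 (45.3%), Stmn2 (48.7%), Marcksl1 (50.3%), Gap43 (54.8%) and Stmn4 (59.9%) lay near that median. Basp1 (73.4%), Marcks (77.4%) and Shtn1 (264%) are at lower levels, where the median over the 3383 genes was 118%. Together the 9 genes took 0.467 to 0.790% of the counts in axons, 0.887 to 1.08% in control somata and 0.749 to 0.899% in stretched somata.

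**Figure D4:**
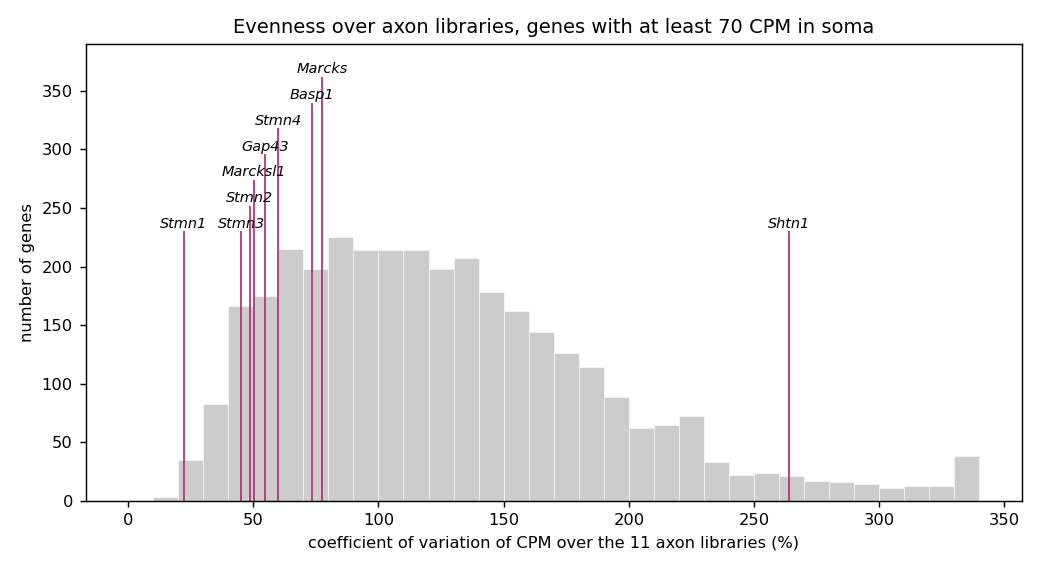
Histogram of the coefficient of variation of CPM over the 11 axon libraries for 3381 genes with at least 70 CPM in somata and a count in axons; vertical lines mark the 9 genes and their heights carry no value. Stmn1 (22.2%) is at the even end and Shtn1 (264%) at the uneven end.

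Axons were compared with somata within each condition. In control cultures Stmn1 and Marcksl1 were lower in axons, 2 of 9 members, while 35.3% of 14728 genes tested were called (34.4% lower). In stretched cultures Stmn1, Stmn2, Stmn4 and Shtn1 were lower, 4 of 9, while 29.3% of 14466 genes were called (28.4% lower). No member was called higher in axons in either condition. Median log2 fold changes, axon over soma, were -1.02 (members) and -1.40 (all genes) in controls, and -0.89 and -1.13 in stretched cultures. With total counts in place of TMM scaling, the median of all genes moved to -1.27 and -0.73, and 35.5% and 29.9% of genes were called.

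Stmn1 had 734 to 1572 CPM in control axons and 1974 to 2597 in control somata, with no overlap, as held for 40.6% of all genes in this direction. The log2 fold change was -1.33 (SE 0.20, adjusted p = 0.000188, edgeR) and stayed below 0 and called without any 1 library. In stretched cultures the axon range of 1002 to 1544 CPM lay just below the soma range of 1550 to 2031, and the log2 fold change was -0.89 (SE 0.13, adjusted p = 7.4e-05). With total counts it was -0.40 (adjusted p = 0.0312), and the call was lost with no filter (-0.90, adjusted p = 0.0854) and with limma voom (-0.91, adjusted p = 0.0580).

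The other stathmins had values of similar size and with more spread. In control cultures Stmn2 was at -0.75 (SE 0.46, adjusted p = 0.310), Stmn3 at -1.12 (SE 0.47, adjusted p = 0.0982) and Stmn4 at -1.03 (SE 0.45, adjusted p = 0.115). In stretched cultures Stmn4 was at -0.99 (SE 0.22, adjusted p = 0.00294) and Stmn2 at -0.67 (SE 0.23, adjusted p = 0.0423), with Stmn3 at -0.66 (SE 0.26, adjusted p = 0.0907). The Stmn2 call was lost in 11 of 12 fits that leave out 1 library. With total counts Stmn2 was at -0.13 and Stmn4 at -0.44, and neither was called. The Stmn4 call was also lost with no filter (adjusted p = 0.13).

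Among the membrane proteins, Marcksl1 was at -0.83 (SE 0.28, adjusted p = 0.0422) in control cultures, a call lost in 8 of 11 fits that leave out 1 library and with total counts (-0.60, adjusted p = 0.0925). It was at -1.13 (SE 0.53, adjusted p = 0.175) in stretched cultures. Gap43 was at -1.02 (SE 0.37, adjusted p = 0.0563) and -1.23 (SE 0.55, adjusted p = 0.147). All 6 stretched axons were below all stretched somata in Gap43, as for 34.6% of genes, and without stretched axon replicate 1 its value was -0.98 (adjusted p = 4.4e-05).

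Basp1 had values of 0.24 (SE 0.71) in control and 0.10 (SE 0.94) in stretched cultures, and Marcks of -0.29 (SE 0.67) and -0.63 (SE 1.28), and none passed the test. For these lower-level genes the axon values lay on both sides of the soma values. Shtn1 was at -1.47 (SE 1.76, adjusted p = 0.718) in control cultures. In stretched cultures it had 174 to 207 CPM in somata and no count in axons, at least 1365-fold lower against the floor of 3 counts per library (adjusted p = 4.3e-06, edgeR). That bound covers counting error only, not the spread between axon libraries, and Shtn1 was counted in 3 of 5 control axons.

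**Figure D5:**
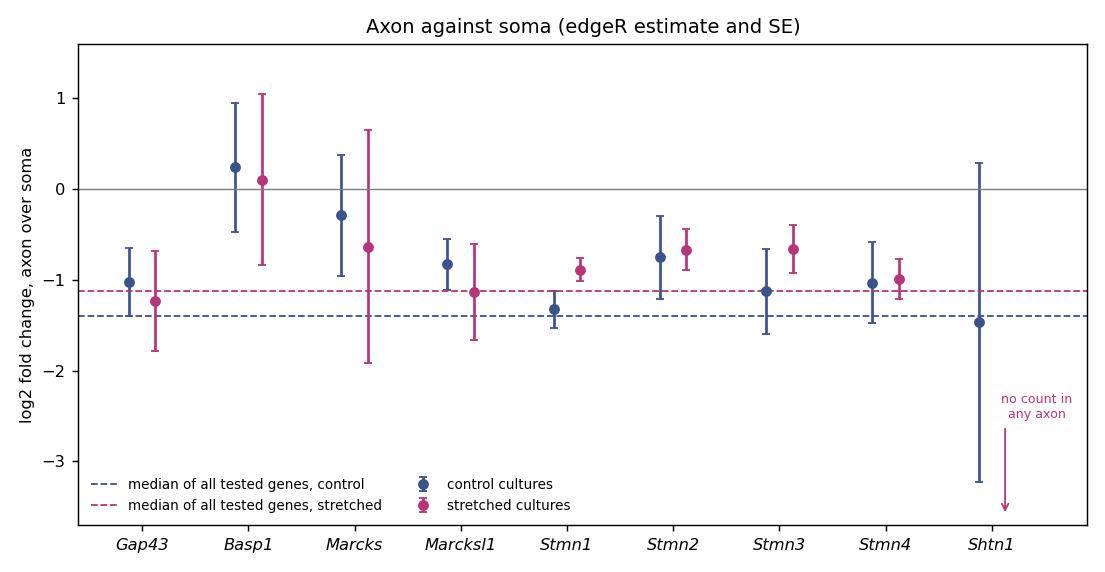
Log2 fold change of each gene, axon over soma, with SE from edgeR, in control and stretched cultures; dashed lines are the medians of all tested genes (-1.40 and -1.13) and the arrow marks Shtn1, with no count in stretched axons. Stathmin values lie between -1.33 and -0.66, and Basp1 and Marcks have wide errors that span 0.

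Whether stretch acted differently in axons and somata was tested as an interaction over all 4 groups. Shtn1 alone of the 9 was called (adjusted p = 0.0148, edgeR), against 21.8% of 16113 genes. This fit shares 1 estimate of the spread between compartments, and the other tools run did not call the gene: limma voom (0.0186% of genes called) gave an adjusted p of 1.00 and DESeq2 (9.09%) gave none. Stmn1 had log2 fold changes with stretch of -0.50 in somata and 0.18 in axons, and the difference of 0.59 (SE 0.28) did not pass the test (adjusted p = 0.186). Of 23 fits that leave out 1 library, it passed in 1, without control axon replicate 5 (0.79, edgeR adjusted p = 0.0275). The highest adjusted p among these fits was 0.382.

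Other genes of growth cones and of the members' pathways were given by lists. In somata, 12 of 22 growth cone associated genes were called with stretch, 6 higher and 6 lower, with a list median of 0.04, beside 25.1% of all genes tested with a median of -0.03. The same share stands beside the next 3 lists. Dpysl2 (0.49, SE 0.11) and Dpysl5 (0.47, SE 0.10), which encode collapsin response mediators that bind tubulin, and the adhesion molecule gene Ncam1 (0.39, SE 0.10) were higher. The actin-binding genes Tmsb10 (-0.55, SE 0.09), Cfl1 (-0.43, SE 0.10) and Cotl1 (-0.41, SE 0.09) were lower. The soma calls of all 4 lists come from the fit without the length offset. In the shortest length class 0.928% of genes were called higher and 30.8% lower, and in the longest 22.7% and 3.97%. The part of transcript length in the direction of these list genes was not tested.

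Of 16 genes for calmodulin, kinases and phosphatases that act on the members, 7 were called, 4 higher and 3 lower. The stathmin kinase genes Mapk8 (0.51, SE 0.11) and Mapk9 (0.87, SE 0.24) and the microtubule-associated kinase gene Dclk1 (0.35, SE 0.09) were higher. Among the lower genes, the kinase genes Camk2a and Cdk5 were at -0.26 (SE 0.09) and -0.30 (SE 0.10), calls lost in 9 and 11 of 12 fits that leave out 1 library.

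Of 6 shootin partners 4 were called. L1cam (0.49, SE 0.12), the adhesion molecule coupled by shootin 1, Cdh2 (0.54, SE 0.12) and the shootin kinase gene Pak1 (0.23, SE 0.07, adjusted p = 0.0520 without stretched soma replicate 6) were higher, while the GTPase gene Rac1 (-1.35, SE 0.36) was lower. Of 6 genes for RNA-binding proteins of member transcripts, 3 were called, all higher: Elavl2 (0.50, SE 0.09), Tardbp (0.41, SE 0.08), whose product controls Stmn2 splicing in human neurons, and Elavl4 (0.41, SE 0.12). In axons no gene of these 4 lists was called with stretch.

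Between axons and somata, growth cone associated genes were called in 7 of 22 cases in control cultures (35.3% of all genes) and 11 of 22 in stretched cultures (29.3% of all genes), with 1 higher in axons in each. That gene was Tmsb10, at 0.89 (SE 0.14) and 0.85 (SE 0.17), with mean levels of 2924 CPM in control axons against 1318 in somata. Map1b, which encodes a microtubule-associated protein of growing axons, was lower in axons at -0.98 (SE 0.17) and -1.40 (SE 0.30), and Tubb3 was at -1.98 (SE 0.18) in stretched cultures. Cntn2, Cap2 and Prkcb in control axons and Gprin1 in stretched axons had means of at most 0.0235 CPM, below the floor of 3 counts.

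Of the calmodulin and kinase list, 3 of 16 were called in control and 2 of 16 in stretched cultures, below the same shares of all genes. Calm3 was lower in axons in both (-1.60, SE 0.18, and -1.66, SE 0.16), Calm2 was higher in control axons (0.37, SE 0.13, edgeR adjusted p = 0.0435), a call lost in 9 of 11 fits that leave out 1 library, and the calcineurin gene Ppp3ca was lower in stretched axons (-2.98, SE 0.81). Of the shootin partners Cdh2 was lower in control axons (-2.37, SE 0.63), and no RNA-binding gene was called in either condition. In the interaction 2 growth cone genes, Cap2 and Gprin1, and Prkcb were called by edgeR, beside 21.8% of all genes. These calls rest on groups below the floor of 3 counts, and the Gprin1 call was lost without control axon replicate 7 (adjusted p = 0.0878).

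The genes most like each member over the 12 soma libraries were found by the root mean square difference of centred log2(CPM + 1) among 9311 genes. Ndufaf3 (0.05) and Hsp90b1 (0.05) were nearest to Gap43, where the median gene was at 0.31. Uchl1 (0.05), Wdr83os (0.07) and Atp5d (0.08) were nearest to Stmn3, and Ndufs3 (0.05), Uchl5 (0.06) and Commd3 (0.06) to Stmn1. Psd3 (0.05), Pitpnc1 (0.06) and Jak1 (0.06) were nearest to Marcks, and Poldip3 (0.06), Cdc42se2 (0.06) and Nr2f2 (0.07) to Shtn1.

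For the rest, Dalrd3 (0.06), Cox8a (0.07) and Atp5h (0.07) were nearest to Stmn2, and Ahsa2 (0.05), Elp2 (0.06) and Tiprl (0.06) to Stmn4. Basp1 (Crlf2, Vav2 and Pheta1 at 0.10 to 0.14) and Marcksl1 (Cnih3, Cry1 and Nsun2 at 0.10 to 0.13) had no gene as close. Among the members themselves Marcks and Shtn1 were the nearest pair (0.12), followed by Gap43 and Stmn1 (0.15).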

How the data were processed

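The authors deposited whole-number counts of reads per Ensembl gene ID for each of 23 libraries. Per the submitters' processing notes, FastQC 0.11.9, MultiQC 1.12, fastp 0.20.1, STAR 2.7.08a and HTSeq 0.13.5 were used with build mm10. The annotation, the strand setting and the use of the molecular identifiers are not given in the sources used here. Reads given to no gene, 14.2 to 24.4% of reads in a library (multiply aligned reads 5.43 to 13.4%), were left out. GENCODE M21 gave symbols and lengths for 55141 of 55487 IDs.

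Counts were tested with edgeR 4.0.16 (filterByExpr, TMM, robust quasi-likelihood F test, R 4.3.3), with Benjamini-Hochberg adjustment over all genes tested and a threshold of 0.05. SE is the log2 fold change divided by the square root of F. CPM uses library totals without TMM. A floor of 3 counts is 0.0697 to 0.183 CPM and covers counting error only. Alternatives used DESeq2 1.42.0, limma 3.58.1 (voom), other scalings, no filter, library groups, left-out libraries, a replicate block and length and GC offsets (mgcv 1.9.3). The code was tested on simulated data.

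Members, lists and tests were chosen with earlier results of these data known. All 9 members are named. From each list and comparison at most 3 genes in each direction are named, by smallest adjusted p under 0.05, and the 3 genes most like each member. Some genes that this rule names are not reported here.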

Additional observations from a re-analysis of the deposited data

Results flagged for a closer look

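In 36 groups of 5 or 6 libraries (9 genes in 4 groups), 4 single libraries lay farther from the rest than Dixon's 95% limit, and chance flags about 1 in 20 groups. Gap43 had 1822 CPM in stretched soma replicate 4, above the other 5 stretched somata. Stmn4 had 1633 CPM in stretched axon replicate 1, and 932 CPM in control soma replicate 3, the lowest control soma. Shtn1 had 225 CPM in control axon replicate 5. The fitted stretch response of Shtn1 differed between axons and somata by -13.88 on the log2 scale (edgeR interaction, adjusted p = 0.0148). That number depends on the prior count, since no stretched axon held a Shtn1 read, and is no bound.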

How the results depend on the processing

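The direction of Gap43, Marcks, Stmn1, Stmn2, Stmn3 and Shtn1 with stretch in somata was the same under all 27 alternatives. The number of genes called there was 0 of 16113 in 1 fit of all 4 groups and 0 of 15718 within library group B, with 0 members called in each. It was 2470 of 15619 with the length and GC offset and 2030 of 15619 with the replicate block and that offset. In axons DESeq2 called 18 of 4947 genes, limma voom 4 of 4947, and the fit of all 4 groups 3870 of 16113, with 1 member, Shtn1. Axon against soma in control cultures gave 10714 of 30188 genes with no filter and 8891 of 14728 with limma voom, where the main fit gave 5196 of 14728. Total counts gave 1 member (5226 of 14728 genes), no filter 1 and DESeq2 5 (5376 of 14728 genes). In stretched cultures no filter gave 10931 of 31176 genes and limma voom 10262 of 14466, where the main fit gave 4234 of 14466. Total counts gave 2 members there (4326 of 14466 genes) and no filter 1. The interaction gave 1464 of 16113 genes with DESeq2 and 3 of 16113 with limma voom, with 0 members in each. The share of Stmn1 among stathmins in control somata was 47.5% by coding length and 53.1% by the longest transcript of any type, the latter chosen after seeing the data, as was leaving control soma replicate 4 out of library group B.

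Leaving out 1 library at a time gave from 2666 of 15876 to 6072 of 15857 genes and 5 to 6 members in somata. In axons it gave 0 to 0 genes and 0 to 0 members. For axon against soma it gave from 4542 of 14132 to 8151 of 15205 genes and 1 to 4 members in control cultures. In stretched cultures these were 4174 of 14547 to 6499 of 15010 genes and 3 to 5 members. For the interaction they were 3272 of 15955 to 4540 of 16428 genes and 1 to 2 members. The highest counts came without control soma replicate 4 (6072), control axon replicate 5 (8151) and stretched axon replicate 8 (6499). Ranges that crossed 0 were Basp1 (-0.0664 to 0.0583) and Stmn4 (-0.0333 to 0.0405) in somata, Basp1 (-0.40 to 0.32), Stmn2 (-0.23 to 0.35) and Stmn3 (-0.17 to 0.31) in axons, Marcks (-0.66 to 0.0052) for axon against soma in control cultures and Basp1 (-0.39 to 0.38) in stretched cultures. For the interaction they were Gap43 (-0.32 to 0.17), Basp1 (-0.47 to 0.27), Marcks (-0.47 to 0.17), Marcksl1 (-0.40 to 0.0641), Stmn2 (-0.0186 to 0.59) and Stmn4 (-0.0261 to 0.76).

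Other changes of sign were in values that had not passed the test, and the cause was not tested. Basp1 in somata was 0.0063 with total counts, 0.0835 in the fit of all 4 groups, 0.0923 in library group B, 0.10 there without control soma replicate 4 and 0.21 with the offset. Marcksl1 was 0.0527 in library group A and 0.0014 with the offset, and Stmn4 -0.0018 in library group A and -0.0111 without both libraries numbered 4. In axons limma voom gave -1.24 for Basp1 and -2.10 for Marcks, and no filter -0.0217 for Stmn2. For axon against soma, limma voom gave Basp1 -0.32 (control) and -1.58 (stretched), and total counts gave Marcks 0.0402 (control). The Basp1 interaction was -0.11 with RLE size factors, -0.11 with DESeq2 and -1.04 with limma voom.

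Replicate numbers are shared between groups, and what a shared number stands for is not given. In somata, control and stretched libraries of the same number always fell in the same library group, A or B. Deviations from the group mean correlated at 0.189 on average for the 5 same-numbered soma pairs (-0.0301 for other pairs), 4 of the 5 were over 0.1, and 1 was best matched with its own number. In axons 0 of 3 pairs were over 0.1, and in the axon against soma comparisons 0 of 4 and 0 of 6. With the replicate block 3209 of 15632 genes were called in somata and 0 of 4947 in axons. The block gave 5287 of 14728 and 7687 of 14466 genes for axon against soma in control and stretched cultures. For the interaction it gave 6 of 16113, with 0 members. Gap43 in somata was -0.29 (edgeR adjusted p = 0.0753) with the block. Basp1 was 0.10 with the block and 0.36 with the block and the offset. In axons the block gave Basp1 -1.66, Marcks -0.81 and Stmn1 -0.0452, and for axon against soma in stretched cultures it gave Basp1 -0.44. The Basp1 interaction with the block was -0.63.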
